A study of Homo sapiens with 18 samples.

Results

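Total RNA was compared between SMARCAL1 knockout clone 1 and a control of the MDA-MB-436 line, which was established from a triple-negative breast cancer, in TruSeq libraries. The comparison took the 3 knockout clone 1 libraries and the 3 control libraries by their labelled genotype, 6 of the 18 libraries of the series. The other 12 are PLATE-seq libraries, a plate-based assay of polyadenylated RNA, of which those of the knockout clones 1, 2 and 3 and their control are used below as a second view of the same genes. Their titles name MDA-MB-436, but their cell line tags count up from it, with a different number for each library. The titles were followed, and whether the tags are an error was not tested. No treatment is named for any of these groups. All were grown in the same serum-supplemented medium. Clone 1 is 1 clonal line, and the labels state neither how SMARCAL1 was disrupted nor whether the control was cloned, so an effect of the knockout and a trait of the clone cannot be told apart in the TruSeq libraries. The replicates are biological replicates by their titles, with nothing on separate days, and the p-values measure only the spread between these libraries.

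SMARCAL1 is an annealing helicase of the SNF2 family that binds RPA and remodels stalled replication forks. The series is about its loss and the immune response of tumour cells. Here the change in clone 1 is described beyond the immune lists, by the roles of the genes: transcription factors, secreted signals, matrix, proteases, membrane proteins, the cytoskeleton, intracellular machinery and non-coding RNAs. Breast cancer lines of the mesenchymal, or basal B, type express vimentin, CD44 and AXL and little E-cadherin or hormone receptor RNA, and they secrete matrix proteins and growth factors that other cells receive through integrins, receptor kinases and guidance receptors.

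SMARCAL1 transcript did not differ by the test. It had 13.3, 14.7 and 14.0 CPM (a normalised read count, relative to library sizes scaled by TMM) in clone 1 and 13.9, 14.1 and 16.1 CPM in the control, and the log2 fold change was -0.07 (SE 0.11, edgeR adjusted p = 0.791). Since gene disruption need not lower the RNA, the level is no check of the genotype. SMARCAL1 lies on chromosome 2 at 216412414 to 216483053 (GRCh38, plus strand). Of the 67 genes tested between 210 and 220 Mb of that chromosome, 2 rose and 1 fell, with a median log2 change of 0.02. The 3 were IGFBP2 (0.70), IGFBP5 (2.58) and FN1 (-0.60), described with their families below. Upstream, XRCC5, which encodes Ku80, was at -0.03, and the non-coding LINC01963, which lies nearer, at 0.39, while RPL37A on the other side was at 0.09. None of the 3 passed the threshold.

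The libraries held 10257584 to 18077956 counts in clone 1 and 11120115 to 19270648 in the control, and 17371 genes passed the filter on low counts. They fell on 2 sides by their detected features, with 36042 to 39068 in knockout replicate 1 and control replicates 1 and 2, and 28621 to 30653 in the other 3. Of the 6 mesenchymal markers of the labelled line, VIM, CD44, AXL, CAV1 and MSN were abundant in both groups, 1 rose and 1 fell. CAV1, a coat protein of caveolae, rose by 0.46 and was lost without control replicate 2 (0.0722), and SPARC fell, with its values below. Vimentin RNA (VIM) had 953.8 to 1169 CPM in clone 1 and 1157 to 1392 CPM in the control, while CDH1, ESR1 and PGR stayed under 1 CPM in every library of either group. The summed level of the fibroblast list was 18.0 to 24.7 CPM in clone 1 and 20.04 to 22.9 CPM in the control, and that of the leukocyte list 24.3 to 27.9 CPM in clone 1 and 32.7 to 36.9 CPM in control libraries. The endothelial list summed to 2.79 to 10.94 CPM in clone 1 and 4.84 to 11.01 CPM in control libraries. No tested member of those 3 lists passed the threshold, and LUM, THY1, CD3D and LYZ had at most 4 counts in any library. Most of the fibroblast sum was FAP, at 15.2 to 16.6 CPM in clone 1 and 16.7 to 17.5 CPM in the control. Most of the leukocyte sum was CD68 and CD14. CD68 had 13.7 to 16.3 CPM in clone 1 and 15.1 to 20.1 CPM in the control, and CD14 5.56 to 11.3 and 11.5 to 18.2 CPM. The luminal list summed to 1106 to 1432 CPM in clone 1 and 1286 to 1715 CPM in the control, with KRT7 the 1 of 6 tested members that rose. The basal list summed to 359 to 384 CPM in clone 1 and 216.5 to 241 CPM in the control, and 4 of its 9 tested members rose, among them KRT17, ITGB4 and S100A9. In bulk RNA, fewer cells of a type and less RNA per cell cannot be told apart, and the part of these lists in the results below was not tested.

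More called genes were higher than lower in clone 1. By class, the share of calls was largest for secreted and related membrane-bound signals and for matrix proteins. At an adjusted p under 0.05, 1089 of 17371 genes passed (6.27%), of which 688 rose in clone 1 (3.96%) and 401 fell (2.31%). Most changes were small: 513 of the 1089 were under 0.5 on the log2 scale and 414 lay between 0.5 and 1. A change of at least 2-fold was found for 162 genes (0.933% of those tested), of which 8 exceeded 8-fold on the fitted scale. An unadjusted p under 0.05 was reached by 20.4% of genes. For 26.3% of all genes tested, called or not, the 3 values of clone 1 did not overlap the 3 of the control. The fold change of a called gene kept its sign in each alternative fit, but the calls themselves leaned on single libraries. Without 1 library the count of calls ranged from 199 (control replicate 2 left out) to 1145 (knockout replicate 1 left out), and 188 calls, 154 rises and 34 falls, stood in all 6 such fits. With the replicate number as a block there were 2387 calls. With the side of the feature split as a covariate there were 3793, of which 1981 rose and 1812 fell, so that rises were 52.2% of calls, against 63.2% without it. The 188 calls that stood in all 6 omissions are called stable below, and genes that were not stable are named with the library that ended the call.

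The size of change that could be called depended on the level of the gene. Among the 1404 genes under 1 CPM, 0.214% were called, and the smallest called change was 3.01 on the log2 scale. The called share was 1.47% between 1 and 4 CPM, 6.05% between 4 and 16, 7.97% between 16 and 64, and 11.1% and 10.3% in the upper 2 bins, which are split at 4 times 64 CPM. The median standard error fell along the same steps, with 0.539 in the lowest bin and 0.077 in the highest, and the smallest called change was 0.25 in each of the upper 2 bins. Large fitted changes ran the other way. A fitted change over 2-fold was seen in 12.5% of genes under 1 CPM, of which 1.7% were also called, and in 0.237% of genes in the bin above 64 CPM, all 7 of which were called. In the highest bin 0.332% of genes, 2 in number, were past 2-fold, of which 50% were called.

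**Figure D1:**
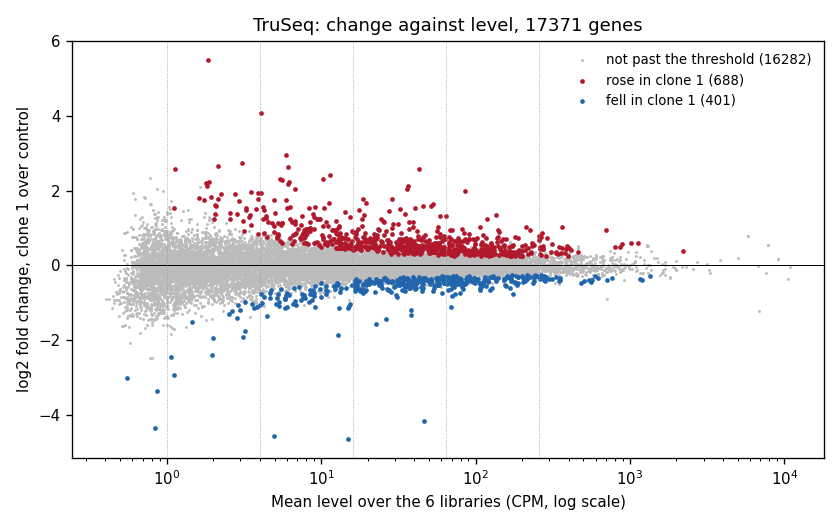
Fitted log2 fold change of clone 1 over control (vertical axis) against the mean level over the 6 TruSeq libraries in CPM (log axis) for 17371 genes. Red points are the 688 genes that rose and blue points the 401 that fell at an adjusted p under 0.05; dotted lines mark the limits of the level bins, and the called points approach 0 as the level grows.

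The 3 largest falls among genes of at least 5 CPM in 1 group were those of 2 secreted proteins and a channel subunit. SPARC, a secreted glycoprotein that binds collagen (chromosome 5, 151661096 to 151687165, minus strand), had 4.36, 4.06 and 6.16 CPM in clone 1 and 86.4, 83.7 and 92.15 CPM in the control. The log2 fold change was -4.16 (SE 0.14, adjusted p = 5.2e-06). ENPP2, which encodes autotaxin, the secreted enzyme that makes lysophosphatidic acid, had 2.41, 0.696 and 0.662 CPM in clone 1 and 30.8, 27.3 and 27.6 CPM in the control. Its change was -4.64 (SE 0.32), and it ranged from -5.37 to -4.32 over the omissions of 1 library. CACNB2, a beta subunit of voltage-gated calcium channels (chromosome 10, 18140677 to 18543557, plus strand), had 0.464, 0.348 and 0.397 CPM in clone 1 and 11.9, 7.59 and 9.03 CPM in the control (-4.55, SE 0.28). In none of the 3 did a library of clone 1 come near a library of the control. ADAM19, a membrane metalloprotease, fell by 1.57 on the log2 scale, BEX1, an X-linked gene of the brain-expressed family, by 1.33, and GCNT1, a glycosyltransferase of core 2 O-glycans, by 1.14. ADAM19 overlaps CYFIP2, and GCNT1 overlaps PRUNE2, on the other strand, and with the strand setting of the counting not stated their reads cannot be told apart.

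The largest rises included genes that were at or under 1 CPM in the control. SOX2, a stem cell transcription factor, had 6.12, 8.36 and 8.47 CPM in clone 1 and 0.341, 0.646 and 0.385 CPM in the control (4.07, SE 0.28, adjusted p = 0.000177). OSTN, the secreted peptide osteocrin, is named after its values were seen, since its level is under the minimum for named genes. It held 42, 68 and 46 counts in the clone 1 libraries and 1 count in each control library, a ratio of 51.0, for which the exact binomial 95% interval, counting error only, ran 17.1 to 250. SULF2, an extracellular sulfatase that edits heparan sulfate, had 21.5, 15.1 and 21.3 CPM in clone 1 and 3.67, 4.04 and 3.14 CPM in the control (2.42, SE 0.18). SULF2 overlaps NCOA3 on the other strand, which was at 0.168 (SE 0.075, adjusted p = 0.2527). These 3 rises were stable. By annotation IGFBP5, GREM1, SPARC, CACNB2, ITGB8, NRP1, VIPR2, KRT7, SOX4, OSTN and HDLBP, described here or below, also overlap a gene on the other strand, with the same limit.

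**Figure D2:**
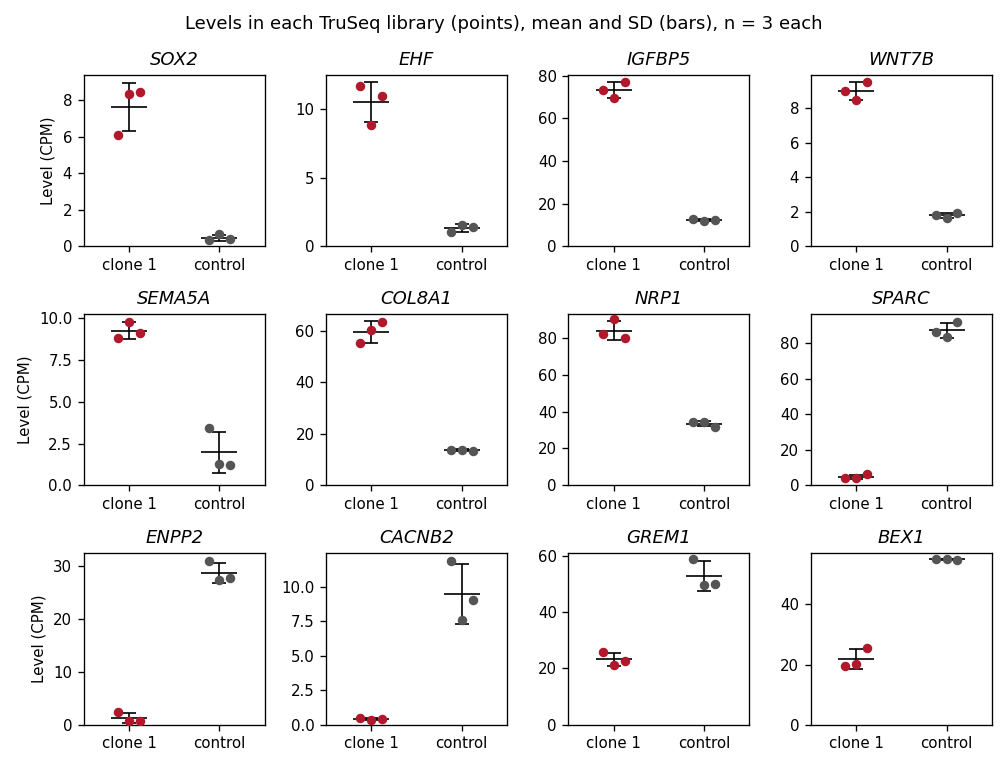
Level in CPM (vertical axis, from 0) of 12 genes in each of the 3 clone 1 libraries (red, left) and the 3 control libraries (grey, right), with the mean and SD as bars. The groups do not overlap for any of the 12; SPARC stands at 4.06 to 6.16 CPM in clone 1 and 83.7 to 92.15 CPM in the control.

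Among the genes with the most counts, the called changes were small, and their calls rested on single libraries. The 5 rises at the highest CPM were ANXA2, the annexin that binds membranes with S100A10 (0.39, SE 0.07), HDLBP, the RNA-binding protein vigilin (0.59, SE 0.08), S100A6 (0.60), the giant cadherin FAT1 (0.57) and the integrin beta chain ITGB1 (0.49). ANXA2 had 2430, 2509 and 2575 CPM in clone 1 and 1844, 1934 and 1945 CPM in the control. Falls among the most abundant calls were those of the ribosomal proteins RPL7 (-0.39) and RPS3A (-0.35), the mRNA-binding protein SERBP1 (-0.34) and PAICS, an enzyme of purine synthesis (-0.39). Each of these 9 lost its call when 1 library was left out. HDLBP lost it only without control replicate 2 (adjusted p = 0.0561). Without control replicate 2 the adjusted p was 0.0809 for ANXA2, 0.15 for S100A6, 0.12 for FAT1, 0.123 for ITGB1, 0.102 for RPL7 and 0.141 for RPS3A, and without knockout replicate 3 it was 0.107 for SERBP1 and 0.0962 for PAICS.

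Transcription factors were called less often than protein-coding genes as a whole, with a few large rises. Of 786 tested, 33 rose and 9 fell (5.34%, against 7.6% of protein-coding genes and 6.27% of all genes). Their median log2 change was 0.06 against 0.00 over all genes. Without the genes of the chromosome blocks described below, 24 of 744 rose and 7 fell (4.17%, against 4.87% of all genes outside those blocks). The 496 C2H2 zinc finger factors, the largest class, gave 7 rises and 6 falls (2.62%), led by ZKSCAN1 (0.76, SE 0.10). None of the 23 HOX factors tested passed. Among smaller families 3 of 10 SOX factors rose, 3 of 20 ETS factors, 3 of 19 KLF and SP factors, and 6 of 60 basic helix-loop-helix factors, of which 2 more fell. Beside SOX2, the progenitor factor SOX4 had 39.6, 39.9 and 41.0 CPM in clone 1 and 14.4, 12.4 and 17.1 CPM in the control (1.44, SE 0.12). EHF, an ETS factor of epithelia (chromosome 11, 34621093 to 34661057, plus strand), had 11.7, 8.88 and 10.99 CPM in clone 1 and 1.02, 1.53 and 1.43 CPM in the control (2.96, SE 0.21). ETV1, an ETS factor of the PEA3 group, rose by 0.95 on the log2 scale (SE 0.12). It lies in the chromosome 7 block between 10 and 20 Mb, where 7 of 20 genes rose.

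The helix-loop-helix rises were led by factors known mainly from the nervous system. NPAS3 had 11.1, 9.98 and 9.53 CPM in clone 1 and 2.65, 2.83 and 1.27 CPM in the control (2.23, SE 0.26). SIM1, known from hypothalamic neurons, had 53.1, 50.5 and 50.5 CPM in clone 1 and 24.4, 21.6 and 22.9 CPM in the control (1.16, SE 0.08). The clock-related factor NPAS2 (0.87, SE 0.08) and the E protein TCF12 (0.60, SE 0.06) rose as well. All 4, with SOX2, SOX4, EHF, ETV1 and ZKSCAN1, were stable. KLF5, a factor of proliferating epithelia, rose by 0.84, and ZEB1, a repressor of epithelial genes, by 0.72. Both lost the call without control replicate 2, with adjusted p = 0.062 for KLF5 and 0.0558 for ZEB1. The homeobox factor MEIS1 rose by 0.96 and was lost without 3 of the libraries (up to 0.0818, without knockout replicate 3).

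Secreted signals were the class with the largest share of calls. The class also took in membrane-bound ligands and receptors: ephrins (1 of 6 rose), Notch ligands and receptors (3 of 9 rose) and the membrane-bound semaphorins. Of 106 tested, 27 rose and 5 fell (30.2%, against 6.27% of all genes and 7.6% of protein-coding genes), and 20 changed at least 2-fold. Their median absolute log2 change was 0.38 against 0.18 over all genes. Without the genes of the chromosome blocks described below, 22 of 98 rose and 5 fell (27.6%, against 4.87% of the 16235 genes outside those blocks).

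Among growth factors and their modulators, 5 of 13 ligands of the TGF-beta superfamily rose and 0 fell, while of 11 antagonists 0 rose and 2 fell. INHBA, the activin A subunit, had 11.3, 9.63 and 9.20 CPM in clone 1 and 1.88, 2.66 and 2.04 CPM in the control (2.19, SE 0.18), and the bone morphogenetic protein BMP7 rose by 1.30 (SE 0.12). GREM1, which traps bone morphogenetic proteins, had 25.9, 21.2 and 22.4 CPM in clone 1 and 59.0, 49.5 and 50.1 CPM in the control (-1.19, SE 0.11). BMPER, another such modulator, fell by 0.73 and was lost without 5 of the libraries (up to 0.176, without control replicate 2). Whether ligands and antagonists differ was not tested.

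Of 6 insulin-like growth factors and binding proteins 3 rose, all of them binding proteins. IGFBP5, which carries these growth factors outside the cell (chromosome 2, 216672105 to 216695525, minus strand), had 73.3, 69.5 and 77.1 CPM in clone 1 and 12.9, 11.7 and 12.3 CPM in the control. The log2 change was 2.58 (SE 0.08, adjusted p = 5.2e-06) and ranged from 2.54 to 2.61 over the omissions. IGFBP4 (1.24) and IGFBP2 (0.70) also rose, and without control replicate 2 their adjusted p was 0.0786 and 0.15. IGFBP2 lies next to IGFBP5, and the pair are the nearest called genes downstream of SMARCAL1.

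The WNT ligands WNT7B and WNT5A rose, 2 of 9 tested. WNT7B had 8.99, 8.47 and 9.53 CPM in clone 1 and 1.79, 1.61 and 1.93 CPM in the control (2.32, SE 0.16), and WNT5A rose by 1.16 (SE 0.09). Of the 9 ligands of the VEGF, PDGF and angiopoietin families 3 rose, VEGFC (1.24, SE 0.15), PDGFC (1.25, SE 0.20) and PDGFB (1.10, SE 0.17). PDGFB was lost without control replicate 2 (0.0657) and without knockout replicate 3. Both FGF calls were falls. FGF5 had 2.69, 2.67 and 2.185 CPM in clone 1 and 6.23, 7.43 and 5.67 CPM in the control (-1.35, SE 0.19; it overlaps CFAP299 on its own strand), and FGF2 fell by 0.29, lost without knockout replicate 2 (0.152) and 3 others. Of the EGF family, the neighbouring genes EREG and AREG, for epiregulin and amphiregulin, rose. EREG had 331.1, 274.3 and 290.5 CPM in clone 1 and 168.3, 153.2 and 143.7 CPM in the control (0.95, SE 0.09), while AREG (1.61, SE 0.29) was lost without knockout replicate 3 (0.108) and both control replicates 1 and 2.

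Axon guidance ligands, which steer migrating cells as well as axons, gave some of the largest changes. Of 18 semaphorins 5 rose and 1 fell, and of 9 netrins, SLITs and related ligands 3 rose. SEMA3A, a secreted repellent that signals through neuropilin 1, had 5.84, 5.16 and 5.03 CPM in clone 1 and 0.597, 1.05 and 0.716 CPM in the control (2.75, SE 0.25). Its neighbours on chromosome 7 rose with it, SEMA3D by 1.74 (SE 0.22) and SEMA3C by 1.02 (SE 0.06). SEMA5A, a transmembrane semaphorin on chromosome 5, had 8.81, 9.81 and 9.14 CPM in clone 1 and 3.41, 1.29 and 1.21 CPM in the control. Its change of 2.28 (SE 0.33) was lost without control replicate 2 (0.0536) and was 2.88 without control replicate 1, the highest of the 3 controls. SEMA7A, a GPI-anchored semaphorin, fell by 1.21 but was lost without 5 of the libraries (up to 0.179, without control replicate 2). SLIT2, the ligand of ROBO receptors, had 78.2, 74.7 and 79.1 CPM in clone 1 and 25.9, 23.7 and 27.5 CPM in the control (1.58, SE 0.08), and NTN4, a netrin of basement membranes, rose by 1.09 (SE 0.14).

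Matrix genes were called almost as often as secreted signals, in both directions. Of 92 tested, 18 rose and 5 fell (25%). COL8A1, a short-chain collagen of vessel walls, had 55.2, 60.5 and 63.6 CPM in clone 1 and 13.8, 13.9 and 13.4 CPM in the control (2.13, SE 0.09, adjusted p = 1.65e-05). The fibrillar collagen COL5A1 rose by 0.73 (SE 0.09) and COL6A2 by 0.76, the second lost without 3 libraries (up to 0.105, without control replicate 2). Beside the fall of SPARC, the matrix glycoproteins TGFBI, an integrin ligand, and SPOCK1, a relative of SPARC, rose by 1.5 (SE 0.11) and 1.03 (SE 0.12). Fibronectin RNA (FN1) had 82.4, 85.3 and 86.8 CPM in clone 1 and 129.2, 126.4 and 130.0 CPM in the control (-0.60, SE 0.06, adjusted p = 0.00137). Laminin beta 1 (LAMB1) rose by 0.52 (SE 0.06).

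Proteases and their inhibitors gave 9 rises and 4 falls among 79 tested (16.5%). The inhibitor SERPINE2, or protease nexin 1, had 200.7, 187.8 and 198.2 CPM in clone 1 and 76.1, 75.6 and 76.7 CPM in the control (1.36, SE 0.06). SERPINB7, an epithelial serpin, fell by 1.12 (SE 0.11), and the collagen chaperone SERPINH1 by 0.61, lost without control replicate 2 (0.0687). Cathepsin S (CTSS), a lysosomal and secreted cysteine protease, rose by 1.11 (SE 0.09). None of the 14 metalloproteases and TIMPs tested fell. TIMP3 (0.80) and TIMP2 (0.45), both inhibitors, rose and were lost without control replicate 2 (0.0566 and 0.0672).

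Membrane proteins as a whole had 55 rises and 14 falls among 725 (9.52%, against 6.27% of all genes and 7.6% of protein-coding genes). These counts include the 22 tested genes of the gamma protocadherin cluster, which are 1 signal counted many times. Integrins, cadherins and receptor kinases held 28 of the 55 rises, 12 of them in the gamma protocadherin cluster described below. Of 18 integrins 5 rose and 1 fell. ITGB8, the partner of alpha V that activates latent TGF-beta, had 20.7, 13.9 and 17.0 CPM in clone 1 and 4.44, 2.99 and 2.97 CPM in the control (2.32, SE 0.21). ITGB4, the hemidesmosome integrin, had 132.7, 146.2 and 148.4 CPM in clone 1 and 58.9, 70.6 and 79.7 CPM in the control (1.03, SE 0.11). Of 42 receptor tyrosine kinases 6 rose and 0 fell, led by the ephrin receptor EPHA7 (1.94, SE 0.26). Of 18 receptor tyrosine phosphatases 4 rose, led by PTPRO (1.30, SE 0.18), and 1 fell. NRP1, the neuropilin that receives SEMA3A and VEGF, had 81.9, 89.9 and 79.85 CPM in clone 1 and 34.2, 34.2 and 31.8 CPM in the control (1.33, SE 0.08). CLDN1, a tight junction claudin, rose by 1.24 (SE 0.11).

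Cadherins and protocadherins showed 17 rises and 0 falls among 66 tested, but 12 of the 17 were genes of the gamma protocadherin cluster on chromosome 5. These genes share their 3' exons, and all 22 that were tested had changes between 0.32 and 0.53, so their calls are 1 signal counted many times. Outside the cluster CDH13, a cadherin without a cytoplasmic tail, rose by 0.71 and was lost without control replicate 2 (0.0515).

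Ion channels and transporters stood near or below the called share of protein-coding genes (7.6%), with 8.33% for ABC transporters and 7.14% for potassium channels. The median absolute log2 change was 0.41 for potassium channels, 0.31 for chloride and ligand-gated channels and 0.28 for calcium, sodium and TRP channels. It was 0.18 for solute carriers, for ABC transporters and over all genes. Of 51 calcium, sodium and TRP channel genes CACNB2 was the 1 called. Of 42 potassium channel genes 3 rose, among them KCNMA1, the large-conductance channel (0.59, SE 0.07). Of 239 solute carriers 7 rose and 4 fell (4.60%), and of 36 ABC transporters 2 rose and 1 fell. None of 23 tetraspanins passed the threshold, and CD63 averaged 285.0 CPM in clone 1, against 293.4 CPM in control libraries. Of 103 G protein-coupled receptors 6 rose and 3 fell. LPAR1, a receptor for the lipid that ENPP2 makes, had 9.92, 7.78 and 10.46 CPM in clone 1 and 3.07, 2.91 and 3.47 CPM in the control (1.56, SE 0.17), and VIPR2, a receptor for vasoactive intestinal peptide, rose by 1.33 (SE 0.16).

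Among cytoskeletal and calcium-binding genes, 23 rose and 10 fell of 193 (17.1%). The S100 proteins, small calcium-binding dimers, gave 5 rises among 10 tested and no fall. S100A10, the partner of ANXA2, had 162.0, 168.1 and 171.7 CPM in clone 1 and 73.3, 69.7 and 70.1 CPM in the control (1.24, SE 0.06), and S100A9 rose by 1.74 (SE 0.18). The keratins KRT17 and KRT7, 2 of 9 tested, rose by 1.78 (SE 0.12) and 1.53 (SE 0.18). The kinesin motor KIF13A rose by 0.72 (SE 0.07), and of 36 kinesins tested 5 rose and 1 fell. None of 21 tubulins passed, and TUBA1B averaged 1921 CPM in clone 1, against 2001 CPM in control libraries.

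Intracellular machinery was called less often than protein-coding genes as a whole. It had 11 rises and 22 falls among 582 (5.67%, against 7.6% of protein-coding genes and 6.27% of all genes). Of its genes 3.78% fell, against 2.73% of protein-coding genes and 2.31% of all genes. Cytosolic ribosomal proteins gave 0 rises and 4 falls of 79, mitochondrial ribosomal proteins 0 and 5 of 78, and heat shock proteins and their cofactors 1 and 4 of 58. The co-chaperone DNAJB4 fell by 0.61 (SE 0.08), and RAB39B, an X-linked vesicle GTPase, by 1.12 (SE 0.16), both stable. Outside the chromosome blocks the class had 3 rises and 16 falls of 551 (3.45%, against 4.87% of all genes there). None of 30 glutathione, aldo-keto and aldehyde enzymes passed.

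**Figure D3:**
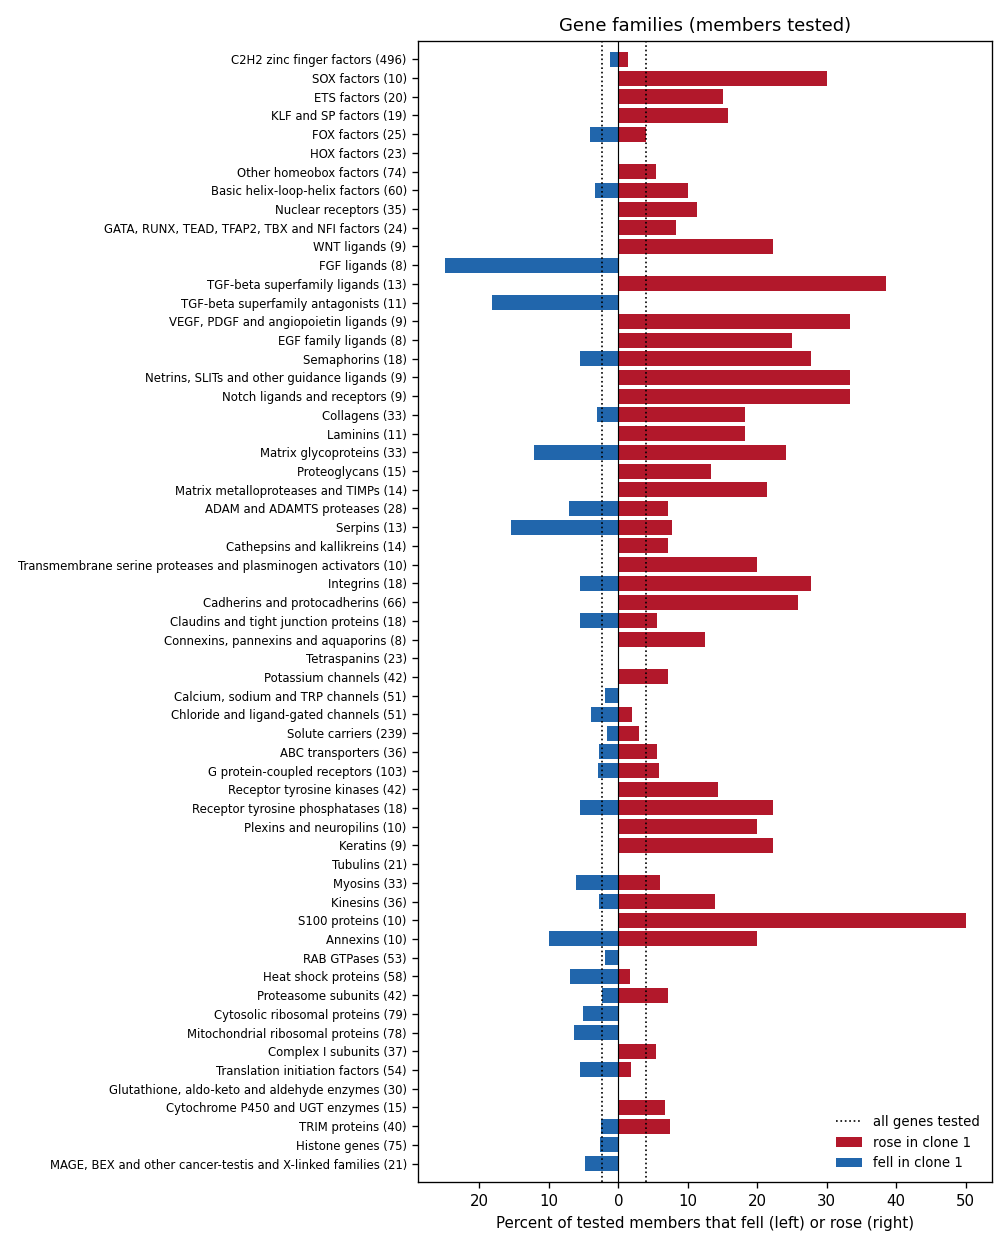
Percent of tested members that fell (blue, to the left of 0) or rose (red, to the right) in clone 1 for each gene family with at least 8 tested members; the number tested is in parentheses, and 1 family is not shown. Dotted lines mark all genes tested, 3.96% rising and 2.31% falling; S100 proteins (5 of 10 rose) and TGF-beta superfamily ligands (5 of 13 rose) stand far to the right, while HOX factors, tetraspanins and tubulins have no bar.

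Non-coding genes were rarely called, beside 7.6% of protein-coding genes and 6.27% of all genes. Of 1560 long non-coding RNAs 15 rose and 14 fell (1.86%). Of 1580 pseudogenes 5 rose and 10 fell (0.949%), and of 447 small or structural RNAs 2 rose and 2 fell (0.895%). Many lay at low levels, where little could be called: of the 1404 genes under 1 CPM, 605 were protein-coding. The median absolute log2 change was 0.28 for long non-coding RNAs and 0.16 for protein-coding genes. That median also grew with the error at low levels. It was 0.42 under 1 CPM (median SE 0.539) and 0.14 between 16 and 64 CPM (median SE 0.1). Whether the sizes differ between the classes at equal level was not tested. None of 133 microRNA precursors passed, and mature microRNAs are not measured by these libraries. The rule for named genes gave 8 rises and 8 falls, of which few were stable. FIRRE, an X-linked RNA of nuclear architecture, held 1 count in each clone 1 library and 14, 27 and 26 counts in the control. The control stood at 22.8 times clone 1 (95% counting interval 7.46 to 113.0, exact binomial), and the call was lost without control replicate 2 (0.0672). LINC01085, annotated as a transcribed processed pseudogene, held 1, 2 and 2 counts in clone 1 and 17, 9 and 15 in the control, and was lost on omission of any 1 library (up to 0.123).

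The stable non-coding rises were AL358876.2, AC007744.1, LINC00839 and ZNF542P. AL358876.2, an intergenic RNA on chromosome 1 (8218190 to 8220529, minus strand), had 16.1, 16.4 and 18.7 CPM in clone 1 and 5.21, 5.49 and 5.45 CPM in the control (1.67, SE 0.12). AC007744.1 rose by 1.95 (SE 0.18), but it overlaps CCDC85A on its own strand, and ZNF542P (1.37, SE 0.18) overlaps ZSCAN5A on the other. LINC00839 rose by 1.18 (SE 0.14). LINC00973 (2.14, SE 0.33) was lost without knockout replicates 2 and 3 (up to 0.0574). It lies on chromosome 3 between DCBLD2, a neuropilin-like membrane protein that rose by 0.945 (SE 0.066), and COL8A1. The next genes along, CMSS1 (-0.39, lost at up to 0.0807, without knockout replicate 3) and TOMM70 (-0.44), fell. DCBLD2 and CMSS1 are named after their values were seen.

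The small nucleolar RNAs SNORD27 (-1.06) and SNORD30 (-1.03) fell. Both lie in introns of SNHG1, which itself fell by 0.43, so fragments of the host cannot be told apart from them. These calls were lost at adjusted p up to 0.118 without knockout replicate 3 for SNORD27, and 0.184 and 0.164 without control replicate 2 for SNORD30 and SNHG1. The abundant nuclear RNAs MALAT1 and NEAT1 did not pass. NEAT1 averaged 495.9 ± 466.4 CPM in clone 1, against 915.9 ± 584.4 CPM in control libraries (SD, n = 3 per group), and its raw counts were 11158, 3975 and 3363 in clone 1 and 14323, 15898 and 4397 in the control. It was high in the 3 libraries with many features and low in the other 3, whatever the genotype. All 13 mitochondrially encoded messenger RNAs were lower in clone 1 without passing the test (median -0.34). Mitochondrial reads were 0.837%, 0.37% and 0.316% of the clone 1 libraries and 0.891%, 0.637% and 0.302% of the control. These shares were likewise higher in the libraries with many features, knockout replicate 1 and control replicates 1 and 2. With the side of the feature split as covariate, MT-CO3 was instead higher in clone 1 and passed the threshold. The lower median therefore cannot be told apart from the feature split.

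Changes also ran in blocks along the chromosomes. The median log2 change of the tested genes was taken in 288 bins of 10 Mb with at least 15 genes, and 264 of them lay within 0.25 of 0. The remaining 24 formed 15 blocks, 7 higher and 8 lower in clone 1, a limit of 0.25 that was chosen after the values were seen. The 7 higher blocks held 3.32% of the tested genes and 25.4% of all rises, and the 8 lower blocks held 3.22% of the genes and 28.7% of all falls. Since the blocks were picked by the same changes, these shares are a description. Outside them 508 genes rose and 282 fell.

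The block with the most called genes lay on chromosome 7 between 80 and 110 Mb, where 57 of 211 genes rose and 2 fell. The median log2 change was 0.39, a 1.31-fold shift, and 187 of the 211 were above 0. It holds SEMA3A, SEMA3C and SEMA3D, the cell cycle kinase CDK6 (1.12, SE 0.09) and the WNT receptor FZD1 (0.97, SE 0.14). Chromosome 2 between 220 and 250 Mb had 50 rises and 2 falls of 126 (median 0.38), with IRS1, the docking protein of insulin and IGF receptors, at 120.1, 146.3 and 141.0 CPM in clone 1 and 32.7, 32.05 and 38.3 CPM in the control (1.98, SE 0.11). The same block holds SERPINE2 and SGPP2, a sphingosine phosphate phosphatase (2.66, SE 0.28). It begins beyond SMARCAL1, whose own bin showed no shift. Chromosome 6 between 10 and 20 Mb had 18 rises and 0 falls of 47 and the highest median of the 15 blocks, 0.48.

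Lower blocks were found on chromosome 1, where 33 of 132 genes fell and 1 rose between 60 and 90 Mb (median -0.35) and 21 of 120 fell between 40 and 50 Mb (median -0.31). On chromosome 20 beyond 60 Mb, 17 of 55 genes fell and 0 rose (median -0.40). GADD45A, a stress-induced gene in the first of them, had 87.1, 92.0 and 87.1 CPM in clone 1 and 133.4, 133.8 and 124.5 CPM in the control (-0.56, SE 0.07). SERBP1, among the abundant falls above, lies in the same block. Over the alternative fits the median of the chromosome 7 block ranged from 0.35 to 0.41, that of the chromosome 2 block from 0.37 to 0.43 and that of the 60 to 90 Mb block from -0.42 to -0.26. Of the 162 genes with at least a 2-fold change, 25 lie among the 576 genes of the higher blocks, 2 among the 560 genes of the lower blocks and 135 among the 16235 genes outside, which are 93.5% of those tested.

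**Figure D4:**
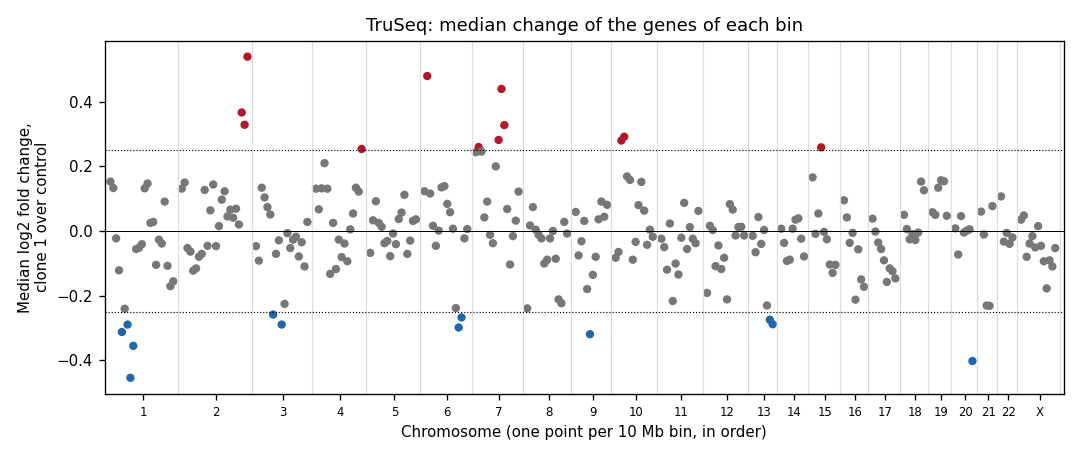
Median log2 fold change of clone 1 over control of the tested genes in each 10 Mb bin (vertical axis), with bins in order along each chromosome (horizontal axis). Red and blue points lie at least 0.25 above and below 0 (dotted lines); runs of red on chromosomes 2 and 7 and of blue on chromosome 1 are the 3 longest.

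PLATE-seq libraries titled as the same clone gave a separate set of reads at lower depth, 1716781 and 1833636 counts in clone 1 and 890402 and 807861 in the control. edgeR called 0 of 8595 genes in that contrast (0.0%), with 704 at an unadjusted p under 0.05 (8.19%), so it is read by sign. Of the 713 TruSeq calls tested in PLATE-seq, 553 had the same sign in clone 1 (77.6%, against 59.9% of the 8177 genes tested in both). Among calls of at least 2-fold it was 45 of 50 (90.0%). WNT7B had 76 and 68 counts in clone 1 and 3 and 2 in the control (3.78, adjusted p = 0.0951), and SOX2 had 20 and 14 counts in clone 1 and 1 and 1 in the control. SPARC had 0 counts in both clone 1 libraries and 6 and 12 in the control. With clone 1 set at a limit of 3 counts over both libraries, that is 12.5-fold lower relative to the library totals. The control counts were taken as exact, so their counting error is not in this value. Others went against TruSeq: CLDN1, with 24 and 18 counts in clone 1 and 13 and 27 in the control, was at -0.98 in PLATE-seq, and CDK6 at -0.33.

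The same TruSeq calls can be set beside the other clones, whose contrasts share the PLATE-seq control libraries with that of clone 1. The share with the TruSeq sign was 531 of 713 in clone 2 (74.5%) and 365 of 713 in clone 3 (51.2%), where 50.4% of all genes shared the sign. Among calls of at least 2-fold it was 46 of 50 in clone 2 and 19 of 50 in clone 3. COL8A1, at 2.13 in TruSeq, was at 2.74 in PLATE-seq clone 1, 2.01 in clone 2 and -5.78 in clone 3, and INHBA, at 2.19, was at 1.45, 1.39 and -1.75. S100A10 was above 0 in each of them, at 0.69, 0.94 and 1.41. None of these 3 genes passed the threshold in PLATE-seq clone 1.

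The blocks could be followed in the same way. The chromosome 2 block had a PLATE-seq median of 0.52 in clone 1, 0.59 in clone 2 and -0.35 in clone 3. The chromosome 7 block between 80 and 110 Mb had 0.48, 0.29 and 0.24. The 60 to 90 Mb block of chromosome 1 had -0.41, -0.31 and -0.07, and the chromosome 6 block between 10 and 20 Mb 0.44, 0.65 and -0.01. Others moved less in clone 1. The 100 to 120 Mb block of chromosome 13 (-0.28 in TruSeq) had -0.14, -0.0 and 0.14. The chromosome 15 block (0.26 in TruSeq) had 0.14, 0.25 and -0.41. The 10 to 20 Mb block of chromosome 7 had too few genes in PLATE-seq for a median. The TruSeq sign was kept in clones 1, 2 and 3 on chromosomes 20 (-0.39, -0.51, -0.2), 9 (-0.26, -0.38, -0.29) and 4 (0.27, 0.47, 0.28). It was also kept on chromosome 10 (0.18, 0.53, 0.57). The chromosome 3 blocks had -0.24, -0.42 and -0.13 from 60 Mb and -0.44, -0.37 and -0.15 from 100 Mb. Chromosome 1 between 40 and 50 Mb had -0.29, -0.24 and -0.01. Chromosome 6 between 130 and 150 Mb had -0.35, -0.38 and 0.24. Over 262 bins the correlation of the medians with TruSeq was 0.65 for clone 1 (Spearman 0.56), 0.57 for clone 2 (0.46) and -0.02 for clone 3 (-0.01). Bins are not replicates, and all 3 PLATE-seq columns share control libraries.

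**Figure D5:**
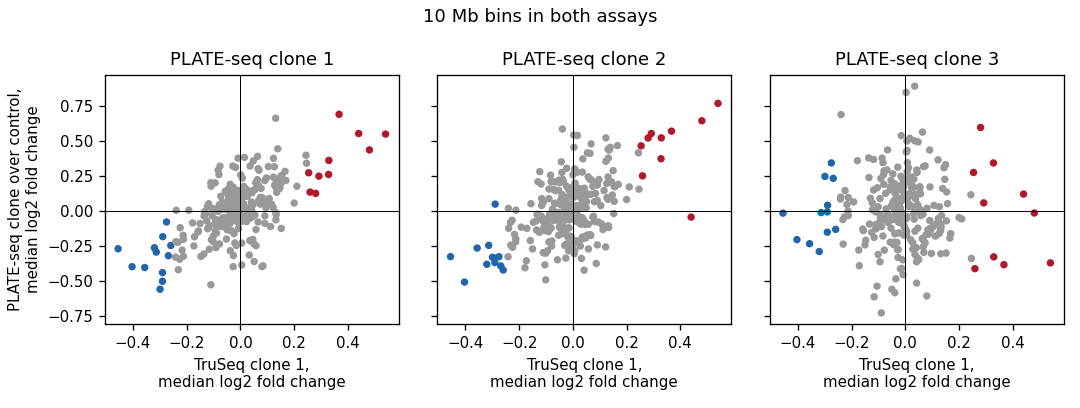
Median log2 fold change of each 10 Mb bin in PLATE-seq knockout clones 1, 2 and 3 over the PLATE-seq control (vertical axes) against that in TruSeq clone 1 (horizontal axes). Red and blue points are bins at least 0.25 above and below 0 in TruSeq. Over 262 bins the correlation was 0.65 in clone 1, 0.57 in clone 2 and -0.02 in clone 3. Some coloured points lay off the diagonal in clone 2 as well. An example is chromosome 7 between 90 and 100 Mb (0.44 in TruSeq, -0.041 in clone 2).

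Gene structure and promoters were described last. Of protein-coding genes in the top 25% by gene span, 9.15% rose and 2.40% fell, against 2.57% and 2.31% in the bottom 25%. RefSeq promoters (GRCh38.p14, 250 bases before to 50 after the start) were matched by symbol for 10534 of 13676 tested protein-coding genes. TATAAA, the core of the TATA box that positions transcription, was searched on the strand of the gene, lying wholly from 15 to 45 bases before the start and was found in 164 promoters (1.56%). Of those 164 genes 21 rose and 8 fell (17.7%), against 522 and 281 of the 10370 others (7.74%), and the median absolute log2 change was 0.27 against 0.16. TGACTCA, the AP-1 site, searched on both strands over the 300 bases, was found in 3.02% of promoters, of which 5.66% rose and 3.77% fell, against 5.14% and 2.71% of the others. A match is a description of the letters and not of a bound site. The 5 stable rises with TATAAA, and the largest such fall, RPL22L1, are shown with the 60 bases before the start, 5′ to 3′ on the strand of the gene, TATAAA in capitals.
OSTN: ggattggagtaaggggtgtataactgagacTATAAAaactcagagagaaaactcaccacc
S100A9: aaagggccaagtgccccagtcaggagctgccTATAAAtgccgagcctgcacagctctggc
EREG: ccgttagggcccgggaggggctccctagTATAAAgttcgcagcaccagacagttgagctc
IL7R: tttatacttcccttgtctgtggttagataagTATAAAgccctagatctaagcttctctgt
DKK1: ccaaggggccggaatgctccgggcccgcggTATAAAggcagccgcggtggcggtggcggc
RPL22L1: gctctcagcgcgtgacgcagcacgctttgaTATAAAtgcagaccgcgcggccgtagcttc

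The 6 windows are chr3:191199181-191199240 for OSTN, chr1:153357794-153357853 for S100A9, chr4:74365085-74365144 for EREG, chr5:35856831-35856890 for IL7R and chr10:52314221-52314280 for DKK1, all on the plus strand, and chr3:170870196-170870255 on the minus strand for RPL22L1. The motif starts 29 to 32 bases before the start in these 6. IL7R, the interleukin 7 receptor chain, had 393.7, 349.0 and 371.2 CPM in clone 1 and 267.5, 247.8 and 238.4 CPM in the control (0.56, SE 0.07). DKK1, a secreted WNT antagonist, had 87.9, 80.6 and 82.0 CPM in clone 1 and 54.2, 58.4 and 57.9 CPM in the control (0.55, SE 0.07). RPL22L1, a ribosomal protein paralogue, had 34.2, 35.3 and 37.9 CPM in clone 1 and 49.4, 55.1 and 55.7 CPM in the control (-0.58, SE 0.08), and its call was lost without control replicate 2 (0.0673). IL7R, DKK1 and RPL22L1 are named for their promoters, after their values were seen. The genes with TATAAA span several of the classes above, with secreted signals, a receptor and S100 proteins among them.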

How the data were processed

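Total RNA was measured in 6 TruSeq libraries and polyadenylated RNA in 12 PLATE-seq libraries. The authors deposited unnormalised counts of reads by gene symbol. The submitters' processing notes name STAR, HTSeq and hg38. Versions, annotation release and strand setting are not given in the sources used here. Symbols were matched to GENCODE release 29 for biotype and GRCh38 coordinates (57106 of 57120), and 14 date-like symbols are not named.

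Counts were tested with edgeR 4.0.16 in R 4.3.3 (quasi-likelihood test, TMM scaling, filterByExpr, Benjamini-Hochberg adjustment over all genes tested, threshold 0.05) on the 6 TruSeq libraries, with 4 residual degrees of freedom. Adjusted p-values in the text come from this test. DESeq2 1.42.0, RLE scaling, no filter, a replicate block, the side of the feature split as covariate, and omission of each library were alternatives. Replicate numbers were not taken to pair libraries. A count of 0 allows up to 3 counts, 0.165 to 0.278 CPM. Intervals and this floor cover counting error only. The test was checked on simulated counts. Figures were drawn with matplotlib 3.10.9 in Python 3.11.15.

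Named genes were SMARCAL1, the 10 largest rises and falls among called protein-coding genes whose higher group reached 5 CPM, the 5 most abundant calls in each direction, the 8 largest non-coding rises and falls reaching 1 CPM, up to 4 called members per family, or 2 abundant members where none was called, and up to 3 called genes per chromosome bin. The members and lists were chosen with earlier results of these data known. A few genes and 1 gene family are not reported here.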

Additional observations from a re-analysis of the deposited data

How the results depend on the processing

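The 1089 calls kept their sign in every alternative that tested them, but their number moved. Leaving out 1 TruSeq library gave 199 to 1145 calls, 87 to 196 of them at least 2-fold, and 64.8% to 81.4% of them rises, against 63.2% with all 6 libraries. Without control replicate 2, which gave the lowest count, 89.3% of calls had the same sign in PLATE-seq, and over all TruSeq and PLATE-seq omissions that share was 73.0% to 89.3%. With the side of the feature split as covariate there were 3793 calls, 282 at least 2-fold, 52.2% of them rises. Within the 3 libraries with few features, a fit added after the data were seen that leaves 1 library in a group to be taken to vary like the others, there were 2517 calls, 261 at least 2-fold. DESeq2 gave 1306, RLE scaling 1060 and no filter 1285 calls. The covariate also turned the sign of MT-CO3 (0.25), RN7SL1 (-0.2) and SCARNA12 (-0.25). They were not called without the covariate and passed the threshold with it. The cause was not tested.

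With the replicate block there were 2387 calls, 197 at least 2-fold, 59.2% of them rises. The deviations of the same-numbered libraries from their group means had r of 0.575, -0.273 and 0.376. With 3 libraries a group and the feature split, these values cannot tell whether libraries of 1 number were handled together. Genes under 4 CPM needed a log2 change of at least 0.85 to be called at this depth.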
